A study of Sus scrofa with 34 samples.

Results

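The proteasome genes of the pig were followed through ileum and liver RNA sequencing data of piglets fed a phytogenic feed additive (PFA), oxidized oil (OO) or both. Members were all genes of the count tables whose Ensembl symbol begins with PSMA to PSMG and a number. This rule found 43 genes of 25880, of which 41 are proteasome genes, and PSMC3IP and PSME3IP1, which only carry the name of a proteasome gene they bind, were counted apart. By role the 41 genes were 7 subunits of the 20S alpha ring, 6 constitutive subunits of the 20S beta ring, the 3 immunosubunits PSMB8, PSMB9 and PSMB10, 8 subunits of the 19S base, 8 of the 19S lid and related 19S subunits, 3 chaperones of 19S assembly, 4 activators, the inhibitor PSMF1 and the 20S assembly chaperone PSMG3. The filter on low counts kept 39 of them, since PSMA8 and PSMB11 were at 0 in every library. PSMA6, PSMB5, PSMB6, PSMD2, PSMG1, PSMG2 and PSMG4 were not analysed here.

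The proteasome is the barrel-shaped protease that breaks down ubiquitin-tagged proteins into short peptides. Its 20S core is built of alpha rings, which gate the barrel, and beta rings, which carry the catalytic sites, and a 19S cap of base and lid binds, unfolds and deubiquitinates the substrate. Under interferon, and constitutively in many immune cells, the immunosubunits PSMB8, PSMB9 and PSMB10 are built into the core in place of the constitutive catalytic subunits PSMB5, PSMB6 and PSMB7, which favours peptides that fit MHC class I. TAP1 and TAP2 carry these peptides into the endoplasmic reticulum.

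Piglets received a basal feed with a little fresh rapeseed oil (control diet) or a feed to which rapeseed oil oxidized by heating was added (OO), each with or without PFA, a blend of essential oils and flavour compounds (PFA and OO + PFA). The OO feeds thus carried more oil than the control feed, and the effects of the oxidation and of the added fat cannot be told apart. Samples were taken on day 28. The liver data hold 6 piglets for each of the 4 diets, and the ileum data hold 5 control and 5 PFA piglets whose livers were sequenced as well, so that replicates are separate pigs. A single pen held all piglets of a diet, and effects of pen and diet therefore cannot be told apart. The authors left OO + PFA pig 77 out for poor read quality, and its library, with 36.6 read pairs of several alignments per 100 counted on genes against at most 14.7 in the other livers, was left out here too, which leaves 5 OO + PFA livers. Between 19839171 and 42446834 read pairs per liver (median 26687231) and between 18772230 and 24338165 per ileum (median 20503630) were counted on genes. Levels are CPM, counts per 1000000 after TMM scaling within the liver or the ileum libraries. Hepatocyte markers summed to between 72047 and 163830 CPM in the livers and to between 3418 and 8071 in the ileum, where TTR was at 0, and enterocyte markers summed to between 4995 and 7581 in the ileum and to between 279 and 872 in the livers. Liver libraries carry titles of 2 forms, PigLiv and PL, whose meaning the labels do not give, and both forms occur in every diet.

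PSMB8 and PSMB9 lie on both sides of TAP1 in the MHC region of chromosome 7, with TAP2 on the far side of PSMB8, while PSMB10 lies on chromosome 6 and PSMB7 on chromosome 1. In RefSeq on Sscrofa11.1, PSMB8 (ENSSSCG00000026951) spans chr7:25058456-25061666 on the minus strand, TAP1 chr7:25062772-25071989 on the minus strand, and PSMB9 (ENSSSCG00000001463) chr7:25072133-25077508 on the plus strand. PSMB10 (ENSSSCG00000031781) spans chr6:28544910-28547609 and PSMB7 (ENSSSCG00000005590) chr1:265172257-265235389, both on the minus strand. The upstream sequences of the genes the liver result turns on are given below from RefSeq's Sscrofa11.1 sequence, 5′ to 3′ on the strand of the gene, to let the immunosubunits be read against PSMB7. For PSMB9 it is the whole stretch between TAP1 and PSMB9, shared by both genes, on the plus strand. Capitals mark GAAANNGAA, a core of the interferon-stimulated element, and TTCNNNGAA, the gamma-activated site, on either strand.
PSMB8, 250 bases, chr7:25061667-25061916, minus strand: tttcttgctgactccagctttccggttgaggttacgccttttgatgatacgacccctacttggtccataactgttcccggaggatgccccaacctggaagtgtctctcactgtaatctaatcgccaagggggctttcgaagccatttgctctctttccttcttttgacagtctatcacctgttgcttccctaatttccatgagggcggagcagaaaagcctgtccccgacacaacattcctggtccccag
TAP1 to PSMB9, 143 bases, chr7:25071990-25072132, plus strand: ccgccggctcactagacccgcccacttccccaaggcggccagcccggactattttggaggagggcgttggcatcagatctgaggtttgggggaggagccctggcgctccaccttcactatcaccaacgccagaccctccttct
PSMB10, 250 bases, chr6:28547610-28547859, minus strand: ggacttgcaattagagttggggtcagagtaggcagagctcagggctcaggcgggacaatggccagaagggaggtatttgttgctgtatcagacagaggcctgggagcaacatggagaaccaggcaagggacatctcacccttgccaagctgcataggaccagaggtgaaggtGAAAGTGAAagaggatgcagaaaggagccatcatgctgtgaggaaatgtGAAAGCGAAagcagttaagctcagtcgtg
PSMB7, 250 bases, chr1:265235390-265235639, minus strand: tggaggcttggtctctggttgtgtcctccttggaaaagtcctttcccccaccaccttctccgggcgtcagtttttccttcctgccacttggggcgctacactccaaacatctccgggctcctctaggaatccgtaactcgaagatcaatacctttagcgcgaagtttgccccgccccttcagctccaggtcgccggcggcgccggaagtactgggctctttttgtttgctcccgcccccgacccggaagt

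GAAANNGAA occurred at 2 places in the 250 bases before PSMB10, at 78 to 70 and at 29 to 21 bases before the annotated start, and at none in the PSMB8 and PSMB7 sequences. In the 250 bases before PSMB9 it occurred at 2 overlapping places, 163 to 155 and 157 to 149 bases before the start, which fall inside the span of TAP1 and so outside the run shown. Among all 41 proteasome promoters of this length 3 held it (PSMB10, PSMB9 and PSMC4), and 1303 of 19503 promoters (6.68%) did so in all. TTCNNNGAA was held by 4 proteasome promoters (PSMD12, PSMD14, PSMD3 and PSMD4), and by 6.10% of all promoters. TGANNNNGC, a core of the antioxidant element, was held by 12 proteasome promoters, PSMB7, PSMB9 and PSMB10 among them, and by 34.7% of all promoters. Both strands were searched.

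Across the 4 liver diets, the genes that differed among the proteasome genes were the 3 immunosubunits. PSMB9 had an adjusted p of 0.00495, PSMB10 of 0.00781 and PSMB8 of 0.00834 (edgeR, quasi-likelihood F-test, adjusted by Benjamini-Hochberg over all genes tested). They make 3 of 39 proteasome genes tested, where 3.66% of all genes tested passed. None of the other 36 passed. PSMB3, a structural beta subunit, came next at an adjusted p of 0.0586 and PSMA7, of the alpha ring, at 0.0974, and 11 of the 39 (28.2%) had an unadjusted p of at most 0.05, as did 25.2% of all genes tested. DESeq2 called 4, the 3 immunosubunits and PSMB3. When each pig was left out in turn between 3 and 6 were called, 5 without OO pig 74 and 6 without OO pig 97, and the immunosubunits were among them every time. Among the 14 PigLiv livers alone PSMB9 and PSMB10 were called and PSMB8 was not (adjusted p = 0.0734), and among the 9 PL livers, with 1 OO + PFA pig, none was called.

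The highest levels of the immunosubunits were found in the OO livers. PSMB8 was at 54.3, 33.5, 22.4, 43.7, 30.9 and 51.4 CPM in the 6 OO pigs, of which pig 97 is the third and pig 74 the first (39.4 ± 12.5, SD, n = 6). In the control livers it ranged from 18.9 to 35.1 CPM with a median of 22.6 (24.3 ± 5.99, SD, n = 6). Thus 3 of 6 OO pigs lay above every control pig, and the other 3, OO pig 97 among them, lay within the control range. PSMB9 was at 34.8, 18.7, 10.3, 27.7, 15.2 and 21.3 CPM in the same OO pigs (21.3 ± 8.81, SD, n = 6), and between 7.76 and 17.3 CPM with a median of 10.9 in the control livers (11.5 ± 3.48, SD, n = 6). For this gene 4 of 6 OO pigs exceeded every control pig. PSMB10 was at 49.1, 38.3, 22.0, 59.2, 43.1 and 56.5 CPM in the OO pigs (44.7 ± 13.6, SD, n = 6), and between 17.3 and 40.1 CPM with a median of 24.5 in the control livers (25.2 ± 8.29, SD, n = 6). Again 4 of 6 OO pigs exceeded every control pig. OO pig 97 was the lowest OO pig for all 3 genes, and the groups overlapped for each.

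**Figure D1:**
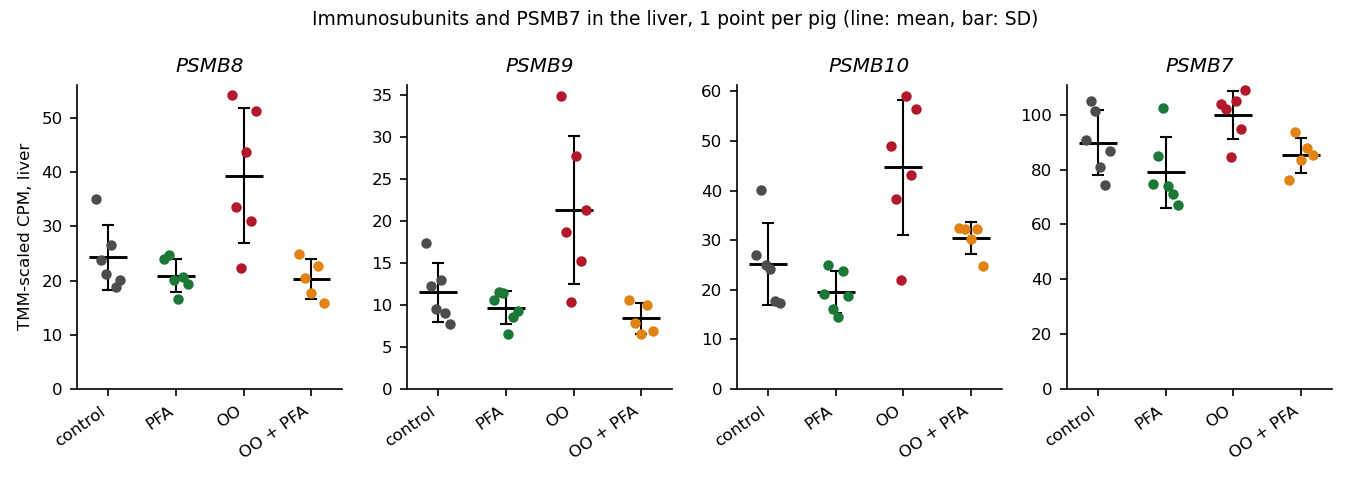
TMM-scaled CPM of PSMB8, PSMB9, PSMB10 and PSMB7 in the livers by diet, with 1 point per pig (6 control, 6 PFA, 6 OO and 5 OO + PFA), a line at the mean and bars of 1 SD, on axes that start at 0. The OO mean was 39.4 CPM for PSMB8, 21.3 for PSMB9 and 44.7 for PSMB10, the highest of the 4 diets for each, with 3, 4 and 4 of the 6 OO pigs above every control pig and the others within the control range.

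With OO all 3 immunosubunits rose against the control diet. PSMB9 rose 1.86-fold (log2 fold change 0.89, SE 0.24, adjusted p = 0.0456), PSMB10 1.77-fold (0.83, SE 0.21, adjusted p = 0.0362) and PSMB8 1.62-fold (0.70, SE 0.19, adjusted p = 0.0474). In this comparison 1.37% of all genes tested were called higher and 1.34% lower, and 2.71% in either direction. The calls lie close to the threshold. PSMB8 was not called with RLE size factors, nor PSMB8 and PSMB9 without the filter on low counts. No proteasome gene was called with all 24 livers or with the 2 diets fitted alone. Of 23 fits that each left out 1 pig, PSMB10 was called in 16, PSMB9 in 7 and PSMB8 in 5, and the log2 fold changes ranged from 0.73 to 1.01, from 0.70 to 1.05 and from 0.58 to 0.83. No proteasome gene was called without control pig 85, 92, 100 or 110 or without OO pig 99 or 130, 1 was called in each of 10 further fits, and 6 were called without OO pig 97, when PSMA7, PSMB4 and PSMB3 joined. Within the PigLiv livers the log2 fold change was 0.79 for PSMB8, 1.15 for PSMB9 and 1.24 for PSMB10, and within the PL livers 0.61, 0.57 and 0.21, of which PSMB10 in the PigLiv livers was called.

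None of the other 36 proteasome genes tested was called with OO, and 6 of them (16.7%) had an unadjusted p of at most 0.05, below the 21.4% of all genes tested. Their estimates lay above 0 for 30 of 36, with a median log2 fold change of 0.11, against a median of 0.06 over all genes tested, of which 57.7% lay above 0. PSMB7, the constitutive counterpart of PSMB10, was at 99.9 ± 8.80 CPM (SD, n = 6) in the OO livers and 89.8 ± 11.8 (SD, n = 6) in the control livers (log2 fold change 0.15, adjusted p = 0.440). PSMB3 was between 31.7 and 60.2 CPM in the OO livers and between 26.4 and 43.1 in the control livers (0.46, adjusted p = 0.0805). PSMA7 spread most in OO, from 62.6 CPM in pig 97 to 162 in pig 130, against 64.2 to 97.2 in the control livers (0.45, adjusted p = 0.136). Of the caps, the 8 base subunits had a median log2 fold change of 0.07 and the 8 lid subunits of 0.10. The regulators of core opening were split. The activators PSME2 (0.33, adjusted p = 0.218) and PSME3 (0.06, adjusted p = 0.754) and the inhibitor PSMF1 (0.22, adjusted p = 0.252) lay above 0. The activators PSME1 (-0.30, adjusted p = 0.498) and PSME4 (-0.12, adjusted p = 0.628) lay below.

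**Figure D2:**
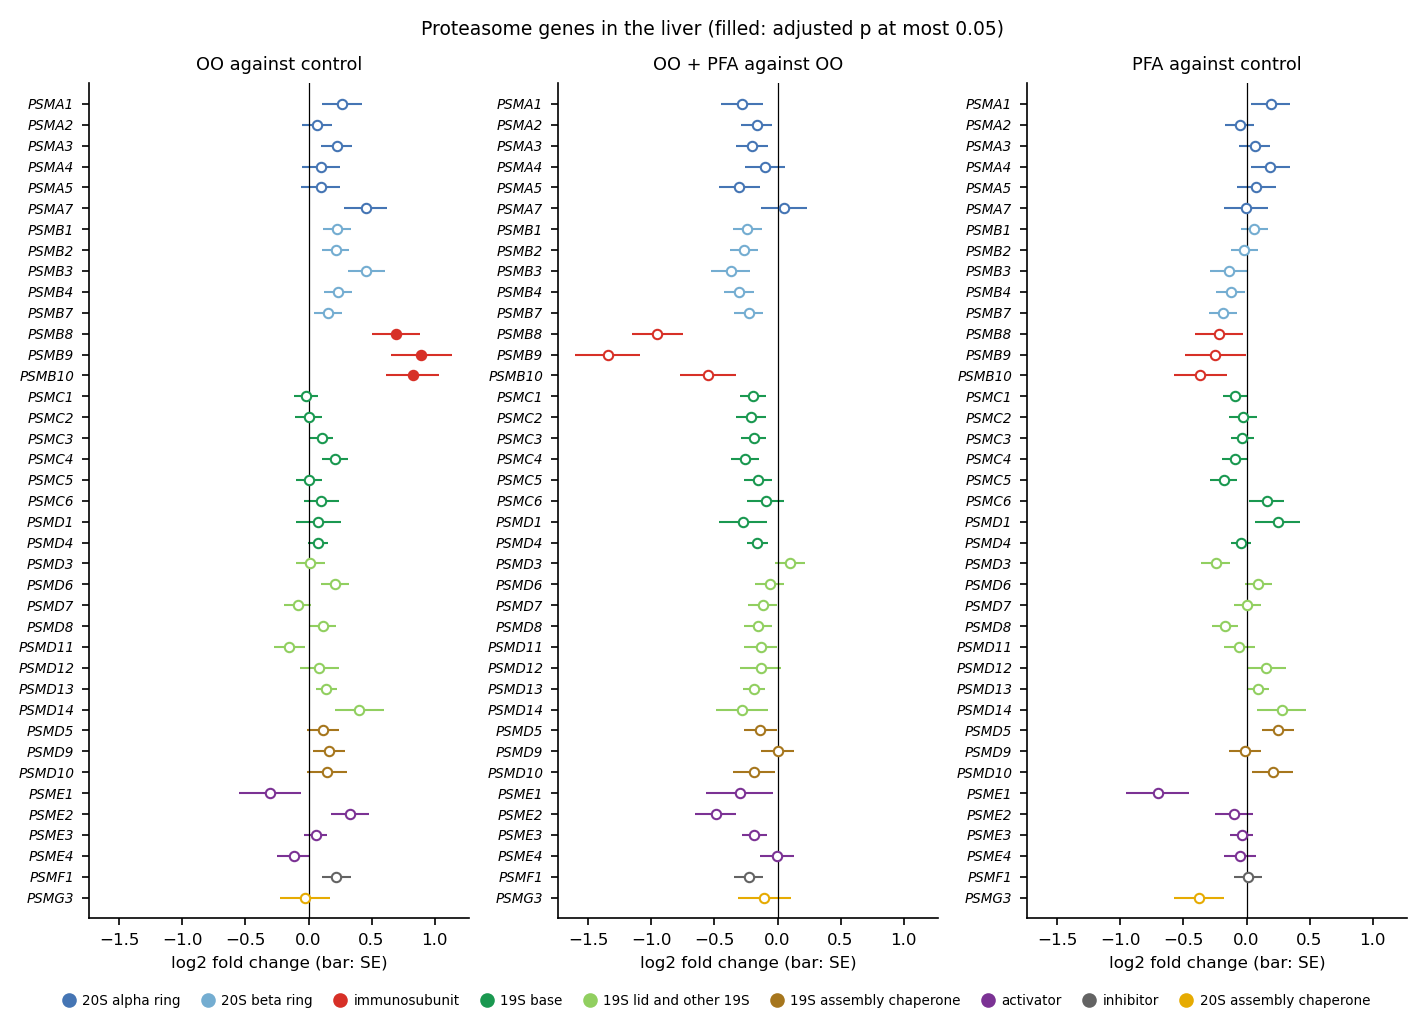
Log2 fold changes of the 39 proteasome genes tested in the liver for OO against control, OO + PFA against OO and PFA against control, coloured by role, with bars of 1 SE and filled points for an adjusted p of at most 0.05. Only PSMB8, PSMB9 and PSMB10 are filled, and only for OO against control, at 0.70, 0.89 and 0.83.

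The genes that work with the immunosubunits were measured beside them. Of 21 genes of interferon signalling and antigen processing tested, none was called with OO, against 2.71% of all genes tested. An unadjusted p of at most 0.05 was found for 3 (14.3%), against 21.4% of all genes, and the median log2 fold change was 0.16. TAP2 was at 0.59 (adjusted p = 0.0667), TAPBP, which holds MHC class I at the transporter, at 0.46 (adjusted p = 0.0811), IRF1, an interferon-induced transcription factor, at 0.30 (adjusted p = 0.198) and TAP1 at 0.29 (adjusted p = 0.322). Others of the list lay near or below 0, such as NLRC5 at 0.06, GBP2 at 0.02, STAT2 at -0.12 and IRF9 at -0.20. POMP, the chaperone that completes the 20S core, was at 0.23 (adjusted p = 0.228). Of 6 regulators of proteasome genes none was called, and NFE2L1, which induces them when proteasomes are inhibited, was at 0.22 (adjusted p = 0.395). Among 53 companion genes tested 0 passed (edgeR), while 7 (13.2%) had an unadjusted p of at most 0.05, against 21.4% of all genes tested. These differences between the immunosubunits and their companions were not themselves tested.

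Markers of immune cells were read in the same livers. T cell markers, of which 4 of 5 had a symbol, summed to between 20.7 and 53.4 CPM in the control livers (median 33.8). They summed to between 23.6 and 40.2 in PFA (median 31.0), 23.02 and 52.5 in OO (median 42.7) and 20.4 and 31.3 in OO + PFA (median 23.1). The 5 macrophage and monocyte markers summed to between 230.0 and 427 CPM in the control livers (median 300) and 228 and 605 in PFA (median 472). They summed to between 293 and 821 in OO (median 474) and 461 and 931 in OO + PFA (median 609). Liver macrophage markers, of which 3 of 4 had a symbol, had medians of 80.0 in control, 71.0 in PFA, 90.8 in OO and 90.8 in OO + PFA. The medians of the B cell markers were 9.21, 6.46, 8.94 and 8.19 in the same order. No marker of any list was called in the liver across the 4 diets or with OO. In whole tissue more cells of a type and more RNA per cell cannot be told apart, and the part of these markers in the immunosubunit levels was not tested.

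In the livers of pigs that received PFA on top of OO, PSMB8 and PSMB9 lay within or below the control range and PSMB10 within it. PSMB8 was at 24.9, 20.5, 17.6, 22.7 and 15.9 CPM in the 5 OO + PFA pigs (20.3 ± 3.66, SD, n = 5), and 3 of 5 were below every OO pig. PSMB9 was at 10.5, 7.91, 6.56, 10.04 and 6.90 CPM (8.39 ± 1.81, SD, n = 5), and 4 of 5 were below every OO pig. PSMB10 was at 32.4, 32.3, 30.3, 32.3 and 24.8 CPM (30.4 ± 3.25, SD, n = 5), all within the OO range, which opens with OO pig 97. The left-out pig 77 had 33.6 CPM of PSMB8, 24.9 of PSMB9 and 113 of PSMB10, each above the other 5 OO + PFA pigs.

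Against OO, none of 39 proteasome genes was called in OO + PFA by edgeR, as was the case for 0% of all genes tested, while DESeq2 called 2, PSMB8 and PSMB9. An unadjusted p of at most 0.05 was found for 10 of the 39 (25.6%) and for 8.5% of all genes tested. PSMB9 was 2.54-fold lower (log2 fold change -1.35, SE 0.26, adjusted p = 0.0942), PSMB8 1.93-fold lower (-0.95, SE 0.20, adjusted p = 0.0970) and PSMB10 1.47-fold lower (-0.55, SE 0.22, adjusted p = 0.515). For PSMB9 the adjusted p ranged from 0.000776 in DESeq2 to 0.804 over 10 other settings, and for PSMB8 from 0.00459 to 0.804. Both passed with a correction for GC content, 2 genes passed without OO pig 97 and 1, PSMB9, without the OO pig with 30.9 CPM of PSMB8. Estimates lay below 0 for 36 of 39 proteasome genes, with a median of -0.19 against -0.02 over all genes, and the activator PSME2 was at -0.49 (adjusted p = 0.410) and PSMB7 at -0.23 (adjusted p = 0.600). Of 21 interferon and antigen processing genes, 7 (33.3%) had an unadjusted p of at most 0.05, against 8.5% of all genes. GBP1 was at -0.97 (adjusted p = 0.285), TAP1 at -0.56 (adjusted p = 0.383) and IRF1 at -0.50 (adjusted p = 0.337). SOCS1 (0.47), IRF8 (0.24), CXCL11 (0.12) and CIITA (0.12) lay above 0, and the others of the list below. This comparison shares the OO pigs with that of OO against control, so both draw on the same high and low OO livers.

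PFA without OO gave no called proteasome gene in the liver. None of 39 passed by edgeR or DESeq2, with 0% of all genes called, and 2 (5.13%) had an unadjusted p of at most 0.05, against 11% of all genes tested. PSMB8 was at 20.9 ± 3.07 CPM in PFA (SD, n = 6; log2 fold change -0.22, adjusted p = 0.693), PSMB9 at 9.67 ± 1.94 (-0.25, adjusted p = 0.725) and PSMB10 at 19.5 ± 4.15 (-0.36, adjusted p = 0.527). The 3 smallest p-values belonged to the activator PSME1 (-0.70, adjusted p = 0.335), the lid subunit PSMD3 (-0.24, adjusted p = 0.449) and the 19S chaperone PSMD5 (0.25, adjusted p = 0.459). PSME1 had between 8 and 45 counts per liver, whereas PSME2, its partner in the activator ring, was at 64.8 ± 10.7 CPM (SD, n = 6) in the control livers. PSME1 shares 88 bases with EMC9 on the other strand, and whether the counting used strand is not given in the sources used here.

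Against the control diet, OO + PFA left the immunosubunits without a call. PSMB8 was at -0.26 (adjusted p = 0.488), PSMB9 at -0.45 (adjusted p = 0.307) and PSMB10 at 0.27 (adjusted p = 0.507) on the log2 scale. None of 39 proteasome genes was called by edgeR or DESeq2 and 4 (10.3%) had an unadjusted p of at most 0.05, against 22.6% of all genes tested, in a comparison in which 5.08% of all genes were called, 4.09% higher and 0.991% lower. PSMA7 was nearest, at 124, 112, 104, 106 and 111 CPM in the 5 pigs, all above the control livers (0.50, adjusted p = 0.0987), and was called with all 24 libraries (adjusted p = 0.0403) and with both diets fitted alone (adjusted p = 0.0144). Next came PSME1 (-0.60, adjusted p = 0.167) and the lid subunit PSMD11 (-0.29, adjusted p = 0.187). PSMA7 shares 132 bases with LSM14B on the other strand, and its GC content is 60.3%. Over the genes with a GC value, log2 CPM relative to the mean of the livers rose with GC content in all 5 OO + PFA livers. It rose in some control livers and fell in others. In OO it fell in pig 97, the lowest for PSMA7, and rose in pig 130, the highest. The link of PSMA7 to this slope was not tested. Of 53 companion genes 2 were called, the proteasome shuttle factor UBQLN4 lower (-0.37, adjusted p = 0.0334) and NPLOC4, a cofactor of the unfolding enzyme VCP, higher (0.57, adjusted p = 0.0478). UBQLN4 also lay below control with OO (-0.34, adjusted p = 0.0517) and with PFA alone (-0.32, adjusted p = 0.297). Across the 4 diets UBQLN4 was called by edgeR (adjusted p = 0.0496).

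Whether the PFA difference itself differed with and without OO was tested by the interaction of both diet factors. None of 39 proteasome genes was called by edgeR or DESeq2, 6 (15.4%) had an unadjusted p of at most 0.05, against 13.6% of all genes tested, and 0% of all genes were called. The estimate was -1.10 for PSMB9 (SE 0.35, adjusted p = 0.208), -0.74 for PSMB8 (SE 0.27, adjusted p = 0.264) and -0.19 for PSMB10 (SE 0.30, adjusted p = 0.817). The third smallest p belonged to the lid subunit PSMD13 (-0.28, adjusted p = 0.318).

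In the ileum PFA did not change a proteasome gene at the threshold. None of 39 was called by edgeR or DESeq2, 1 (2.56%) had an unadjusted p of at most 0.05, against 2.8% of all 14300 genes tested, and 0% of these were called. PSMB8 was at 230, 163, 211, 193 and 231 CPM in control pigs 100, 110, 71, 80 and 92, and at 217, 255.6, 203, 189 and 186 in PFA pigs 107, 134, 138, 75 and 95. The log2 fold change was 0.03 for PSMB8, -0.02 for PSMB9 and 0.04 for PSMB10. PSMB9 ran from 65.9 to 142 CPM in the control pigs and from 95.5 to 131 with PFA, and PSMB10 from 61.3 to 139 and from 85.7 to 157. The diets overlapped for all 3 genes, and control pig 110 was the lowest pig for each. The smallest p belonged to the lid subunit PSMD12 (0.24, unadjusted p = 0.0333, adjusted p = 0.991), followed by PSMB2 (0.22) and PSMA5 (0.27). Estimates lay above 0 for 31 of 39 proteasome genes, with a median of 0.10 against 0.02 over all genes, of which 53.3% lay above 0. UCHL5, the deubiquitinase of the 19S base, was at 0.28 (unadjusted p = 0.00285, adjusted p = 0.991). The paper lists UCHL5 among the genes it found differentially expressed in this comparison, and the edgeR fit here did not call it.

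Larger differences lay between the tissues. The lower bound of RNA integrity that the paper gives is lower for the liver than for the ileum. Per 100 pairs counted on genes, 22.8 to 27.9 lay outside genes in the ileum and 7.54 to 23.5 in the 23 livers. Effects of tissue and of RNA quality cannot be told apart here. In the 10 control and PFA pigs that gave both tissues, the immunosubunits were higher in the ileum than in the liver in 10 of 10 pigs. On a scale common to these 20 libraries, PSMB8 was between 108 and 171 CPM in the ileum and between 24.1 and 50.6 in the liver, and PSMB9 between 43.9 and 97.1 and between 9.49 and 25.0, with no overlap for either. PSMB10 was between 40.9 and 104.9 CPM in the ileum and between 21.0 and 58.2 in the liver, which overlap. PSMB9 was 4.73-fold higher (log2 fold change 2.24, SE 0.16, adjusted p = 4.77e-11), PSMB8 4.29-fold (2.10, SE 0.12, adjusted p = 6.56e-13) and PSMB10 2.16-fold (1.11, SE 0.18, adjusted p = 1.03e-05). T cell markers summed to between 273 and 410 CPM in the ileum on the ileum scale and to at most 53.4 in the livers. Of 4 T cell markers tested 4 were called higher in the ileum, as were 40.6% of all genes. Of 5 macrophage and monocyte markers 4 were called lower there, as were 3 of 3 liver macrophage markers tested and 37.5% of all genes. Of 5 B cell markers 0 were called. On the ileum scale they summed to between 9.55 and 525 CPM in the control pigs, with a median of 12.9. With PFA they summed to between 8.58 and 18.5 CPM (median 9.81). The part of these markers in the difference was not tested.

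Of 39 proteasome genes 32 differed between the tissues, as 78.1% of all genes tested did, 9 higher and 23 lower in the ileum, against 40.6% and 37.5% of all genes. At least 2-fold higher were 3, the immunosubunits, against 24.1% of all genes, and at least 2-fold lower were 8, against 21.3% of all genes. With library totals in place of TMM factors, an alternative added after seeing the data, the median log2 difference of all genes moved from 0.05 to 1.17 and the split of the proteasome genes to 30 higher and 4 lower (PSMB7, PSMG3, PSMC5 and PSMD3), so directions here are relative to the median gene. The constitutive beta ring lay below the median gene throughout, with 5 of 5 called lower and a median of -0.80. PSMB7 was at 50.8 ± 5.08 CPM in the ileum and 123 ± 19.7 in the liver (SD, n = 10; -1.27, SE 0.09, adjusted p = 3.55e-11). The alpha ring was mixed, with PSMA2 (0.33) and PSMA5 (0.39) called higher and PSMA3 (-0.39) and PSMA7 (-1.30) lower.

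In the 19S cap 7 of 8 base subunits were called lower in the ileum, led by the ATPase PSMC5 (-1.37, SE 0.08, adjusted p = 9.45e-13), and PSMC6 higher (0.42). The lid held the lowest value of all, PSMD3 (-1.75, SE 0.10, adjusted p = 2.17e-12), whereas PSMD12 (0.43) and PSMD14 (0.42), the deubiquitinase of the lid, were called higher. PSMG3 was at 4.94 ± 0.77 CPM in the ileum and 15.6 ± 5.23 in the liver (SD, n = 10; -1.64, SE 0.15, adjusted p = 1.82e-09). Of the activators PSME2 was called higher in the ileum (0.53, SE 0.11, adjusted p = 0.000274), while PSME1 (0.09), PSME3 (0.00) and PSME4 (-0.08) were not called, and the inhibitor PSMF1 was lower (-0.74, SE 0.08, adjusted p = 2.04e-08). PSMC5 shares 685 bases with FTSJ3 on the other strand. Of 22 interferon and antigen processing genes, 16 were called higher and 3 lower in the ileum, against 40.6% and 37.5% of all genes. TAP1 was at 3.14, TAP2 at 2.13, IRF1 at 2.13 and NLRC5, the transactivator of MHC class I, at 1.67. The 3 lower were STAT2 at -2.77, CALR at -1.04 and PDIA3 at -0.68.

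**Figure D3:**
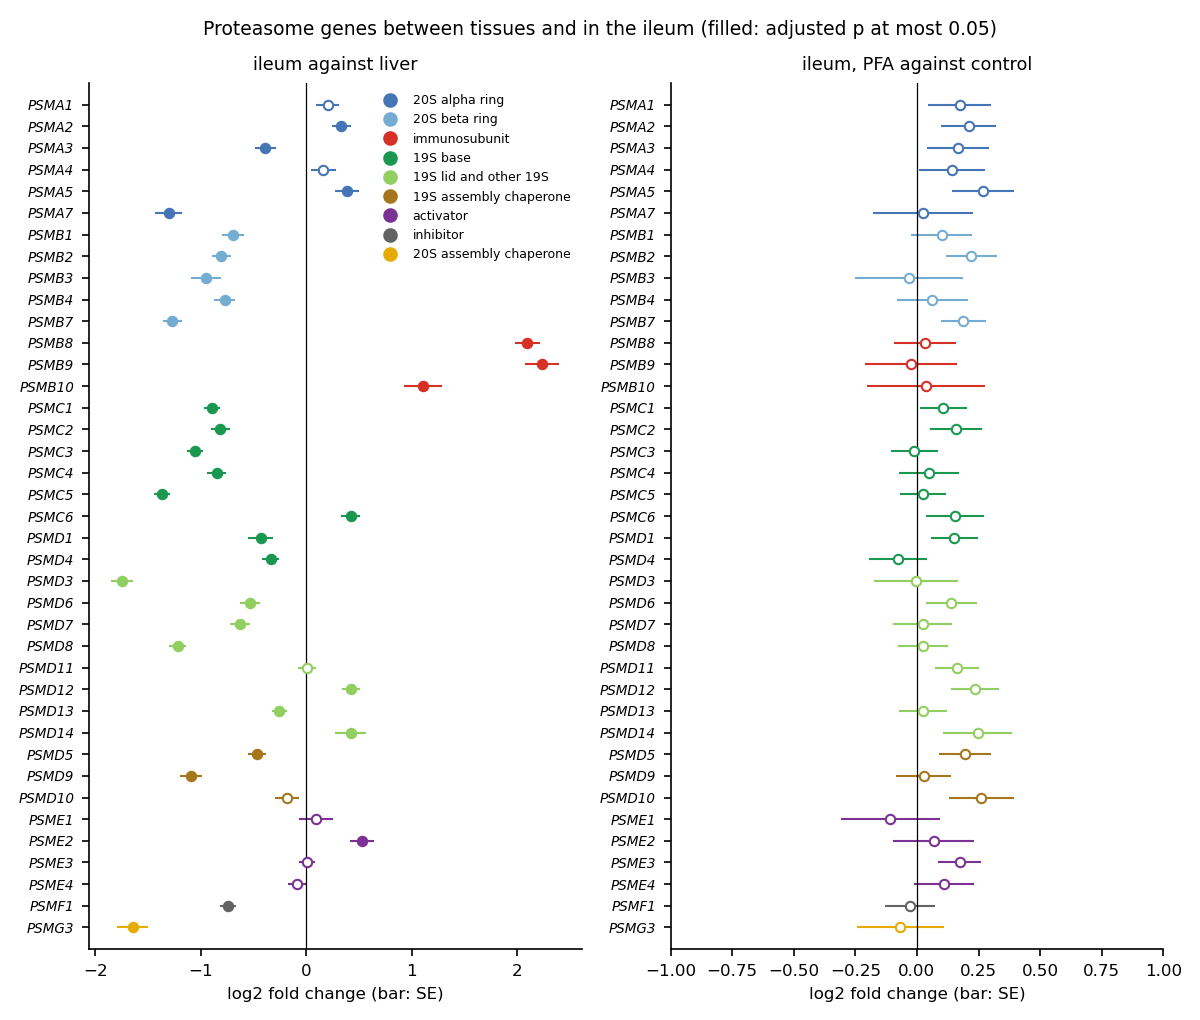
Log2 fold changes of the 39 proteasome genes tested between ileum and liver of the same 10 pigs and, in the ileum, between PFA and control, coloured by role, with bars of 1 SE and filled points for an adjusted p of at most 0.05; the axes of the panels differ. PSMB8, PSMB9 and PSMB10 stand to the right at 2.10, 2.24 and 1.11, PSMD3 to the left at -1.75, and no point is filled for PFA.

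Per kilobase of exon, the order of the proteasome genes differed between the tissues. In the ileum PSME2 came first with a mean of 157 CPM per kb and PSMB8 second with 116, and PSMB10 (71.5) and PSMB9 (67.2) ranked next to the top in places 4 and 5. In the liver PSMB7 (127), PSMA7 (111) and PSMB2 (111) came first, and PSMB10 (33.3), PSMB8 (27.2) and PSMB9 (14.3) ranked in places 25, 27 and 34 among the 41 genes. The PFA effect was compared between the tissues of the same pigs, and 0 of 39 genes differed by edgeR or DESeq2 (0% of all genes), with 1 (2.56%) at an unadjusted p of at most 0.05, PSME1 at 0.70, against 4.93% of all genes.

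The count ratio of an immunosubunit to PSMB7 within a library needs no scaling between libraries. PSMB10 and PSMB7 hold the same place in the core, and PSMB8 and PSMB9 were set against PSMB7 as well. In the control livers the log2 ratio of PSMB10 to PSMB7 was -1.88 ± 0.32 (SD, n = 6), or 0.271 on the linear scale, in PFA -2.03 ± 0.41 (n = 6), in OO -1.23 ± 0.40 (n = 6) and in OO + PFA -1.49 ± 0.20 (n = 5). In the ileum it was 0.48 ± 0.49 in the control and 0.36 ± 0.45 in the PFA pigs (SD, n = 5 each), so that PSMB10 there was counted about as often as PSMB7 or more, between 0.890 and 2.05 times. The ratio of PSMB8 to PSMB7 was -1.91 ± 0.35 in control, -1.92 ± 0.27 in PFA, -1.40 ± 0.37 in OO and -2.08 ± 0.31 in OO + PFA livers, and 1.54 ± 0.19 and 1.39 ± 0.27 in the control and PFA ileum. For PSMB9 the ratio was -3.01 ± 0.43, -3.04 ± 0.26, -2.33 ± 0.52 and -3.37 ± 0.36 in the livers in the same order, and 0.59 ± 0.44 and 0.42 ± 0.24 in the ileum. The liver and ileum ranges did not overlap for any of these ratios, and the OO livers overlapped the control livers for each. These ratios are of counts and not per kilobase, and no test was made on them.

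**Figure D4:**
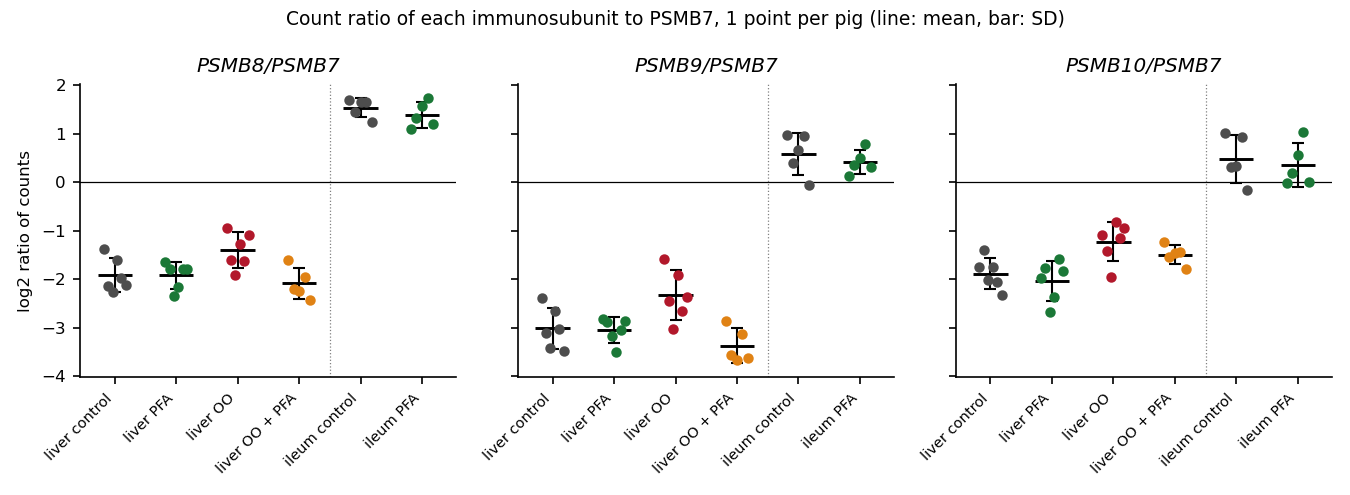
Log2 ratio of the counts of PSMB8, PSMB9 and PSMB10 to those of PSMB7 by tissue and diet, with 1 point per pig, a line at the mean and bars of 1 SD. Liver points lie below 0 in every diet, at means of -1.88 for PSMB10 in control and -1.23 in OO livers, and ileum points lie around or above 0.

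PSMB9 and PSMB10 were also the proteasome genes that varied most between pigs of a diet in the liver. Within diets the SD of log2 CPM was 0.44 for PSMB9, the largest of the 39 genes, 0.39 for PSMB10, the second, and 0.34 for PSMB8, the sixth, after PSME1, PSMD14 and PSMG3, against a median of 0.19 for the other 36. In the ileum it was 0.43 for PSMB10, the largest there, 0.34 for PSMB9, the fourth, and 0.20 for PSMB8, which ranked 14 of 39 and lay close to the median of 0.18 for the other 36.

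PSMB10 was compared with PSMB7, its constitutive counterpart, over the pigs. In 23 livers it followed PSMB7 with Pearson's r = 0.66 (permutation test, two-sided, p = 0.00052, adjusted 0.00244) and Spearman's rho = 0.67 (p = 0.00084, adjusted 0.00672), with adjustment over a family of 8 relations. Without the 2 pigs farthest from the median of PSMB7, r was 0.59 (permutation p = 0.00497). On deviations from the diet means r was 0.45 (permutation p = 0.0291, adjusted 0.0777) and rho 0.51 (adjusted 0.0368), so that by r the relation did not pass within diets. Within the 14 PigLiv livers r was 0.82 (permutation p = 0.00039) and within the 9 PL livers 0.48 (permutation p = 0.197). In the 10 ileum pigs r was -0.14 and rho -0.03 (permutation p = 0.708 and 0.946). The difference between the tissues was not tested.

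**Figure D5:**
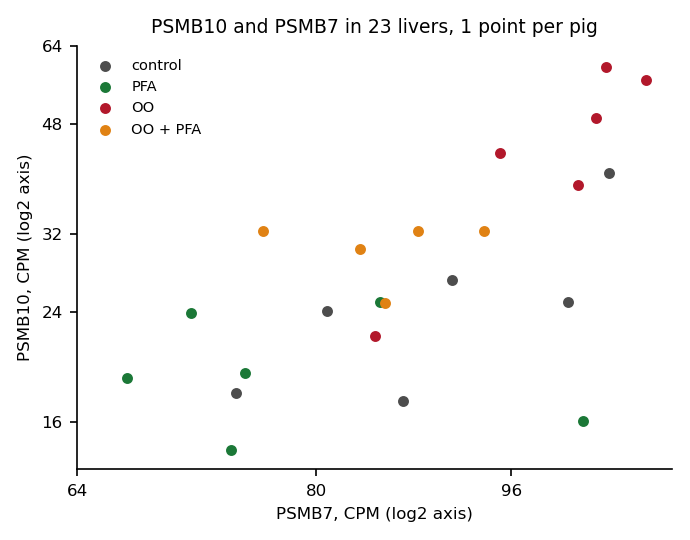
CPM of PSMB10 against that of PSMB7 in 23 livers, with 1 point per pig coloured by diet and log2 axes. PSMB10 rises with PSMB7 at r = 0.66, and 5 of the 6 OO pigs lie in the upper right.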

How the data were processed

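RNA was measured by stranded paired-end sequencing of polyadenylated RNA in 24 livers and 10 ilea. The authors aligned the reads with STAR 2.6.1d to Sscrofa11.1 and deposited whole-number counts of read pairs per Ensembl gene from HTSeq, without normalization; the submitters' notes also name DESeq2 1.22.2. Neither the annotation release nor the strandedness setting of the counts is given in the sources used here. Per 100 pairs counted on genes, the files of the libraries used also list 7.54 to 27.9 pairs outside genes, 2.24 to 4.44 ambiguous pairs and 3.02 to 14.7 multiply aligned pairs, which were kept out of library sizes and tests.

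Counts were tested with edgeR 4.0.16 (limma 3.58.1, R 4.3.3), quasi-likelihood test, two-sided, TMM scaling, filterByExpr, with Benjamini-Hochberg adjustment over all genes tested (13831 in the liver, 14300 in the ileum, 14982 in both) and calls at an adjusted p of at most 0.05. Liver contrasts came from 1 fit of 23 livers over the 4 diets, the tissue contrast from 20 libraries of 10 pigs. Log2 CPM used a prior count of 2, and relations used 100000 permutations with Benjamini-Hochberg adjustment over 8 tests, of which 2 are given; 1 companion gene and the relations with it are not reported here. Tables and figures were made with Python 3.11.15, numpy 2.4.6, pandas 2.3.3, scipy 1.17.1 and matplotlib 3.10.9. The edgeR fit was also run on simulated counts for PFA in the ileum, OO in the liver and the PFA effect compared between tissues. Precision is limited by the number of pigs rather than by depth, except for PSME1.

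Genes named with values are the catalytic and immunosubunits, the activators, PSMF1 and PSMG3, every member called in a diet comparison, the 3 members with the smallest p in each diet comparison, and the 3 highest and 3 lowest between tissues; the members and lists, and the companion genes shown, were chosen with earlier results of these data known, and other members and companion genes were named after their values were seen. Alternatives were DESeq2 1.42.0, RLE size factors, other filters (none, or a minimum of 10 counts per library), a lowess GC correction (span 0.5), all 24 livers, the diets compared alone, a term for the title form, leaving out each pig, and, added after seeing the data, each title form alone and library totals. Ileum and liver libraries of the same pig can be paired by the pig number in the labels. The main tissue fit did not use this pairing and treated the libraries as separate, and the pig as a block was an alternative. Same-pig correlations of deviations from the group means ranged from -0.18 to 0.46 over 14982 genes. For control pigs 100 and 92 and PFA pigs 95 and 138, the highest correlation with another pig exceeded that with the same pig. Promoters were 250 bases before each RefSeq gene start.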

Additional observations from a re-analysis of the deposited data

Results flagged for a closer look

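Of 16 proteasome genes and 114 groups of values checked, 15 groups held 1 pig that stood far from the rest of its diet, and chance marks about 1 in 20 groups. Among the immunosubunits this was PSMB10 in the OO + PFA pig with the PL title, at 24.8 CPM with the next pig at 30.3. Beta subunit PSMB2 was low in the same pig, at 54.1 CPM, high in the liver of control pig 71, at 80.3, and low in the ileum of control pig 110, at 59.4. Activators stood out 6 times: PSME1 was at 1.70 CPM in the liver of control pig 80, PSME3 at 59.5 in PFA pig 95 and at 56.9 in OO pig 74, and PSME4 at 64.8 in PFA pig 95, at 34.3 in OO + PFA pig 79 and at 124 in the ileum of control pig 110. PSMG3 was high in the liver of control pig 80, at 20.5 CPM, and in the ileum of PFA pig 134, at 9.06. PSMD12 was high in PFA pig 95, at 48.4 CPM, and PSMD3 in OO + PFA pig 79, at 136, and in the ileum of PFA pig 134, at 92.3. No proteasome gene passed a test of a difference between effects, neither that of PFA with and without OO nor that of PFA between ileum and liver.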

How the results depend on the processing

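Among the diet comparisons in the liver, OO against control had 3 proteasome genes called, 2 with RLE size factors (without PSMB8), 1 without the filter on low counts and 1 in the PigLiv livers (PSMB10 both times), and 0 with all 24 livers, with the 2 diets fitted alone and in the PL livers, while DESeq2, GC correction and a title-form term called 3. Across the 4 diets 2 were called in the PigLiv livers (without PSMB8) and 0 in the PL livers. For OO + PFA against OO, DESeq2 and GC correction each called 2, and for OO + PFA against control all 24 livers and the 2 diets alone each called 1. Leaving out single pigs gave 3 to 6 calls across the diets, 0 to 6 for OO against control, 0 to 2 for OO + PFA against OO and 0 to 1 for OO + PFA against control. Between tissues, library totals gave 15 genes at least 2-fold higher and 0 lower, against 3 and 8, and turned PSME4 to 1.05 and PSMF1 to 0.38; single pigs left out gave 2 to 3 and 8 to 9, and the 2 came without PSMB10. With the pig as a replicate block 32 of 39 were called between tissues, with 3 at least 2-fold higher and 8 lower, and the pairing changed no other call. Signs turned on the log2 scale for ileum PSMB9 with GC correction (0.0439), PSMB7 (-0.11) and PSME2 (-0.0681) with OO and PSMB10 (-0.42) with OO + PFA in the PL livers, where OO + PFA is 1 library, that of the pig with 24.8 CPM of PSMB10, the PSMB10 interaction with all 24 livers (0.35), and between tissues PSME3 with GC correction (-0.0410) and PSME4 with at least 10 counts in every library (0.0059). When ileum pigs were left out PSMB8 ran from -0.0474 to 0.0766, PSMB9 from -0.16 to 0.0902, PSMB10 from -0.15 to 0.17, PSME1 from -0.17 to 0.00325 and PSME2 from -0.0376 to 0.18, and PSME3 between tissues from -0.0328 to 0.0610. For PSMB10 with PSMB7 r was 0.48 in the PL livers and 0.45 on deviations from the diet means. The causes were not tested. Correlations and ratios with PSMB5 and PSMB6 were not run.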
